A study of Rattus norvegicus with 14 samples.

Results

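Endothelial cells line every blood and lymphatic vessel. In the rat aorta, RNA sequencing was used here to follow 41 genes that mark these cells, their activation by inflammation and the lymphatic lineage. The genes were listed by symbol, and 37 of the 41 were found among the 17019 genes of the deposited table; Ptprb, Mmrn2, Ecscr and Mmrn1 were not analysed here. Of the 37, 35 had a value above 0 in at least 1 of 14 libraries. Aortas of male Dark Agouti rats were taken from the heart down to the renal arteries, and each library is from 1 rat. The control rats (n = 5) had intact kidneys, received no treatment and were followed for 14 weeks. The uremic rats (n = 5) underwent 5/6 nephrectomy, which removes most kidney tissue; from week 8 they also received alfacalcidol, a vitamin D prodrug, at 30 ng 3 times a week for 6 weeks, 14 weeks in all. The third group (n = 4) had intact kidneys and received vitamin D, at a dose and for a time that the sources do not give. All uremic rats thus received vitamin D. The study's title calls the aorta calcified, and its design text mentions a high-phosphate diet but assigns it to no group. Vessels were freed of connective tissue and blood by hand and rinsed; adipocyte markers were nevertheless above 0 in every library. In such bulk samples fewer cells of a type and less RNA per cell cannot be told apart.

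The endothelium is a single cell layer on a thick muscular wall, so its transcripts are a small part of aortic RNA. Its cells are held together by junction proteins such as VE-cadherin (Cdh5), claudin 5 (Cldn5) and PECAM-1 (Pecam1), and they read growth signals through the VEGF receptors (Flt1, Kdr, Flt4) and the TIE receptors (Tie1, Tek). Under inflammatory cytokines, endothelial cells display the selectins E and P (Sele, Selp), on which leukocytes roll, and the ligands ICAM-1 and VCAM-1 (Icam1, Vcam1), which hold leukocytes through their integrins. VCAM-1 is also made by activated smooth muscle cells, and ICAM-1 by many cell types, so neither gene is limited to endothelium. Lymphatic vessels lie in the adventitia and are marked by the transcription factor Prox1 with Lyve1, Flt4, podoplanin (Pdpn) and reelin (Reln).

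Values are FPKM, a read number divided by the length of the transcript and the size of the library, so that levels can be compared between genes. In control aortas the members ranged from Prox1 at 0.183 ± 0.170 FPKM (SD, n = 5) to Pecam1 at 88.8 ± 12.4 FPKM. Next below Pecam1 came Vcam1 at 79.7 ± 13.8 FPKM, Eng (endoglin, a co-receptor for TGF-beta and BMP ligands) at 66.3 ± 9.75 FPKM and Klf2, a transcription factor induced by flow, at 46.1 ± 12.1 FPKM. Pecam1 and Vcam1 differed by less than the SD of either. Only the steps from Eng to Klf2, Klf2 to Emcn (32.2 ± 5.38 FPKM), Plvap to Tie1 (16.0 ± 2.27 FPKM), Dll4 to Flt4, Selp to Reln and Reln to Prox1 exceeded the larger SD of the pair, so the order of most neighbours is not resolved. The 5 endothelial markers chosen to check the tissue (Pecam1, Cdh5, Tie1, Tek and Kdr) were above 0 in every library. Of the lymphatic markers, Lyve1 averaged 24.5 ± 6.94 FPKM in control aortas, while Prox1 was listed at 0 in 2 control, 2 uremic and 1 vitamin D library and never exceeded 0.950 FPKM. Lyve1 is also made by macrophages of the vessel wall and Pdpn by fibroblasts and mesothelium, so the lymphatic label rests here on Prox1 and Flt4, both close to the limit of detection. Cd34 and Robo4, known endothelial genes, were listed at 0 in all 14 libraries, as were 3750 genes (22.0%) of the table.

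**Figure D1:**
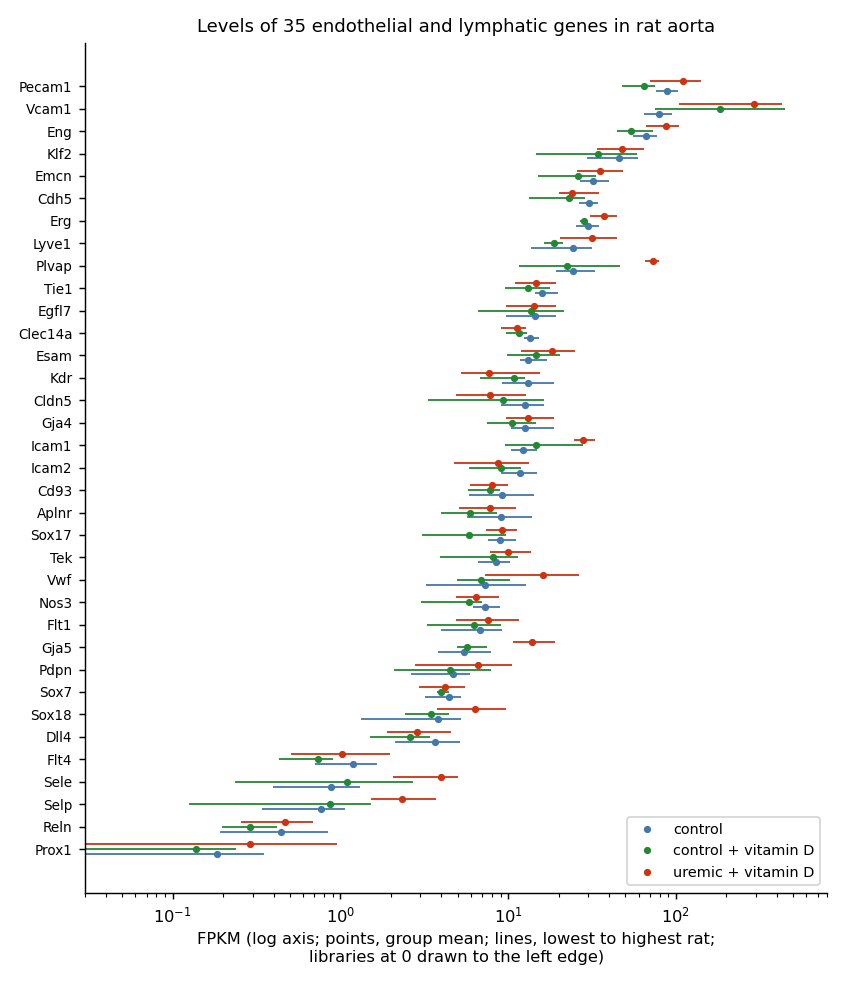
Levels of the 35 members with a value above 0, in order of their control mean. Points are group means in FPKM on a log axis and lines run from the lowest to the highest rat; Plvap and Gja5 in uremic rats lie to the right of all control rats, while most other genes overlap.

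Depth differed between libraries. Whole reads could be recovered from the steps of the FPKM values for all 35 members; over the genes of the table with recovered reads, a library held between 1442908 and 4865823 reads, the highest being uremic rat 27, whose label names a technical replicate. Vcam1 had between 442 and 6011 reads per library and Plvap between 57 and 940. Sele had between 2 and 103 reads, Selp between 1 and 54, Flt4 between 5 and 63 and Prox1 between 0 and 13, so values of these 4 genes carry a large counting error.

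Some rats stood apart in these genes as a set. Rat 37 was the highest of the 4 vitamin D rats in 21 of 35 members (60.0%), against 25.6% of all 10875 genes that reached 1 FPKM in some library. Rat 39 was the lowest of the same group in 23 of 35 members (65.7%), against 29.4% of all genes. Rat 27 was the highest uremic rat in 20 of 35 members (57.1%), against 22.3% of all genes. Uremic rat 28 was the lowest of its group in 14 of 35 members (40.0%), against 14.2% of all genes, and control rat 41 in 14 (40.0%), against 18.4%. These shares describe single animals, and the genes are not independent of each other. Rat 27 also had the lowest summed level of the smooth muscle markers (9916 FPKM, against 13827 to 20902 in the other uremic rats) and the highest summed white adipocyte markers (6288 FPKM, against 1050.1 to 2512). The part of attached fat or of muscle content in these positions was not tested. Every rat was also left out in turn, and results for single members that rest on 1 rat are given with and without it.

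**Figure D2:**
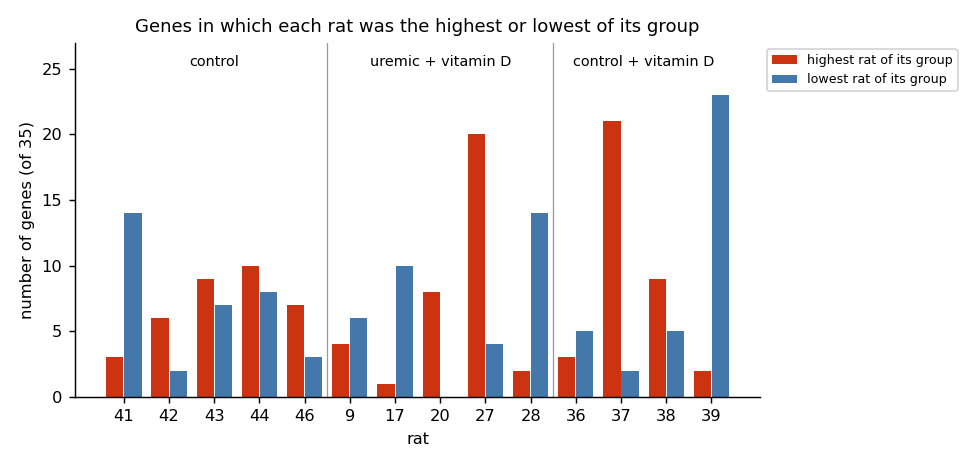
Number of the 35 members in which each rat was the highest (red) or the lowest (blue) of its own group. Rats 27 and 37 were highest in 20 and 21 members and rat 39 was lowest in 23.

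Uremic against control aortas were compared first, to ask which of these genes differ when uremia and vitamin D are combined. The adhesion molecules of activated endothelium were all higher in uremic rats, together with Plvap and the gap junction gene Gja5, while most genes of endothelial identity did not pass the test. A gene entered the test if 4 or more libraries of the comparison reached 1 FPKM; log2(FPKM + 1) was fitted with limma over all such genes, and calls were made where the Benjamini-Hochberg adjusted p fell under 0.05. Of 33 members tested, 6 were called higher and 1 lower, and 26 were not called. Of all 9957 genes tested, 21.9% were called, against 7 of 33 members (21.2%). The share of called members was thus that of the whole table, with 11.4% of all genes called higher and 10.5% lower. The log2 difference was above 0 in 20 of 33 members (60.6%) and in 50.5% of all genes. Its median was 0.11 over the members and 0.00497 over all genes. Sele and Selp passed the filter through the uremic libraries, so their presence among the tested genes already reflects a high uremic level.

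**Figure D3:**
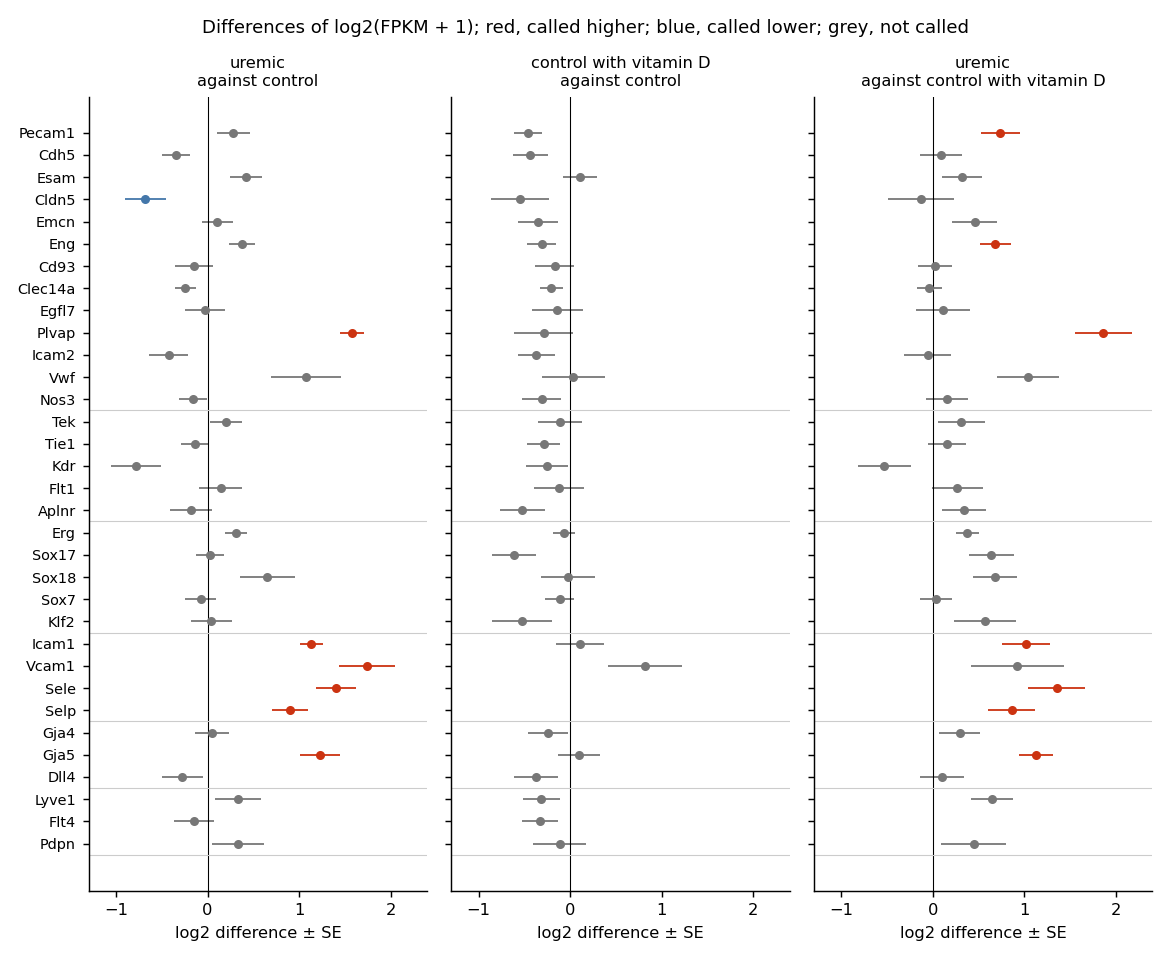
Differences in log2(FPKM + 1) with their SE from limma, for members tested in at least 1 of 3 comparisons, ordered by role from identity genes at the top to lymphatic genes at the bottom. Red marks genes called higher (Plvap, Gja5 and the 4 adhesion molecules in uremic against control), blue genes called lower (Cldn5) and grey genes not called; no member was called for vitamin D alone.

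Vcam1 had the largest difference among the members on the log2(FPKM + 1) scale; by the ratio of means, and with a pseudocount of 0.1 or 0.01 or in voom, Sele had a larger one than Vcam1. Vcam1 (chromosome 2, 237158200 to 237177689 in the rn5 build) stood at 69.2, 93.7, 94.5, 64.9 and 76.3 FPKM in the control rats and at 329, 104, 333, 272 and 426 FPKM in uremic rats 9, 17, 20, 27 and 28. Every uremic rat lay above every control rat, and rat 17 was close to the control range. The mean rose from 79.7 ± 13.8 to 293 ± 119 FPKM, 3.68-fold (log2 1.74, SE 0.30, limma adjusted p = 0.00141). Icam1 (chromosome 8, 22092154 to 22103917) stood between 10.3 and 14.9 FPKM in control rats and at 29.6, 24.6, 32.8, 24.6 and 28.2 FPKM in uremic rats. The groups did not overlap and the spread within each was small. Icam1 rose 2.29-fold, from 12.2 ± 1.73 to 28.0 ± 3.49 FPKM (log2 1.13, SE 0.12, limma adjusted p = 4.92e-05).

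The selectins were low in all aortas and higher in uremic ones. Sele (chromosome 13, 87235355 to 87244746) stood at 0.749, 1.31, 1.29, 0.394 and 0.645 FPKM in control rats and at 5.03, 2.05, 4.77, 4.18 and 3.99 FPKM in uremic rats. Selp (chromosome 13, 87318110 to 87344163), its neighbour on the chromosome, stood at 0.340, 0.890, 1.06, 0.835 and 0.683 FPKM in control rats and at 2.20, 1.53, 3.71, 2.32 and 1.86 FPKM in uremic rats. In both genes the lowest uremic value, that of rat 17, exceeded the highest control value. Sele rose 4.57-fold (log2 1.40, SE 0.22, limma adjusted p = 6.68e-04) and Selp 3.05-fold (log2 0.90, SE 0.20, limma adjusted p = 0.00611). The log2 differences understate such low genes, because 1 is added to every value. With no filter on low values both calls held, at limma adjusted p = 0.00138 and 0.00612. P-selectin and von Willebrand factor are also stored in platelets; of 4 platelet markers in the table, 3 were above 0 and Gp1bb was listed at 0 throughout, and their sum ran from 8.86 to 45.2 FPKM in control and from 21.6 to 82.6 FPKM in uremic rats. The part of platelet RNA in the Selp difference was not tested.

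Promoter windows (RefSeq, GRCr8 build) are shown for 5 of the 6 genes that rose in uremic against control, all but Selp. NF-kB is the textbook inducer of the adhesion molecules, and its part in these rises was not tested. Each window runs from 250 bases before to 50 bases after the annotated start and is given 5′ to 3′ on the gene's strand. Capitals mark matches, on either strand, to the NF-kB consensus and to the TATA box letters TATAAA. The windows are Vcam1 (chr2:206742734-206743033, minus strand), Icam1 (chr8:27829595-27829894, plus strand), Sele (chr13:78936264-78936563, plus strand), Plvap (chr16:18231230-18231529, minus strand) and Gja5 (chr2:187290977-187291276, plus strand).
Vcam1: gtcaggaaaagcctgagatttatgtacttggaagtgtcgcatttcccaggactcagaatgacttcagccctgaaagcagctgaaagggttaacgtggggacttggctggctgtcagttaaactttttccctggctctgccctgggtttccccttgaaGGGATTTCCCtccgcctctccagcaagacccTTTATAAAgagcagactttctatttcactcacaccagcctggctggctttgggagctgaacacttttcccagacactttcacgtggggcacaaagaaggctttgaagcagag
Icam1: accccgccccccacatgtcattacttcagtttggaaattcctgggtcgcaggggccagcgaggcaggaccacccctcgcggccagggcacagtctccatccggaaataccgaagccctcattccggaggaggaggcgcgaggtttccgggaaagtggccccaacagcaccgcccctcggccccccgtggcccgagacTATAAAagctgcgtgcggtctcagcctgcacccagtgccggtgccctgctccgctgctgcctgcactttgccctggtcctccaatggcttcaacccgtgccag
Sele: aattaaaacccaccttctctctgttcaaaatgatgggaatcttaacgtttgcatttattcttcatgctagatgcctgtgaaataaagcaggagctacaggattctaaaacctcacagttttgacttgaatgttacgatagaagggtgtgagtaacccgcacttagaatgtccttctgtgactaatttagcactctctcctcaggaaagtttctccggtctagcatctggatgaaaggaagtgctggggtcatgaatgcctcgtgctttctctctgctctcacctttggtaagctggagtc
Plvap: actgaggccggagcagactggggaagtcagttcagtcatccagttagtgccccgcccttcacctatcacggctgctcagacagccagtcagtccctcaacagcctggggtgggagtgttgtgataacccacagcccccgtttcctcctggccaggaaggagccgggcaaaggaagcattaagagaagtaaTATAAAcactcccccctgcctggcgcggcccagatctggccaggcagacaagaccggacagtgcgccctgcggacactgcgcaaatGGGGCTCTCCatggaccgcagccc
Gja5: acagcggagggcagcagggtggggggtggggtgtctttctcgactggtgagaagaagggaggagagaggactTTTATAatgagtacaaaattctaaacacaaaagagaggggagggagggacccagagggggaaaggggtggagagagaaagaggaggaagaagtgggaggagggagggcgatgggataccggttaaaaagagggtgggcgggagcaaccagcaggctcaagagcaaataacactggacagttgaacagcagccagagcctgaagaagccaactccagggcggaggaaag
In Vcam1 the NF-kB consensus begins 93 bases upstream of the start and matches on both strands, and TATA letters on the 2 strands begin 62 and 60 bases upstream and overlap. Icam1 holds TATA letters 53 bases upstream and no match to this form of the NF-kB consensus within the window. Its letters TGGAAATTCC differ from that form only at the first base, so the lack of a match does not mean the lack of a site. Plvap holds TATA letters 60 bases upstream and an NF-kB match that begins 27 bases after the start. The first base of that match completes the letters ATG, the form of a start codon, so the match may lie in coding sequence. In Gja5 the TATA letters lie on the opposite strand 178 bases upstream. The Sele window holds neither motif, but its annotated start falls on the letters ATG, the form of a start codon. That window may thus lie within the gene, and its lack of matches says nothing about the Sele promoter. Of 41 members, 25 had a window, 22 of them genes of the table. The NF-kB consensus was found in 4 of the 25 (16.0%; Vcam1, Plvap, Kdr and Flt1), against 4.18% of all 33469 RefSeq windows. The ETS letters AGGAAG, the core bound by ERG and its relatives, were found in 15 of 25 (60.0%) against 34.5% of all windows, and the KLF letters CCACCC in 14 (56.0%) against 29.4%. TATA letters were found in 6 of 25 (24.0%) against 14.2% of all windows, the GC box GGGCGG in 16 (64.0%) against 33.1%, and the E-box CACGTG in 3 (12.0%) against 6.42%. A match is a description of letters, not a bound site.

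Plvap, which encodes the protein of the diaphragms that bridge endothelial fenestrae and caveolae, had the smallest adjusted p of the members. Its level (chromosome 16, 19767917 to 19780232) was 19.4, 32.8, 22.9, 23.8 and 22.0 FPKM in control rats and 79.4, 75.0, 76.1, 65.7 and 69.1 FPKM in uremic rats. The uremic values lay close together and all at least 65.7 FPKM, far from the highest control value of 32.8 FPKM. Plvap rose 3.02-fold, from 24.2 ± 5.10 to 73.1 ± 5.54 FPKM (log2 1.57, SE 0.13, limma adjusted p = 7.63e-06).

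Gja5, which encodes the arterial gap junction protein connexin 40 (chromosome 2, 218648367 to 218669370), stood at 3.82, 4.04, 7.90, 3.84 and 7.68 FPKM in control rats. Uremic rats had 13.9, 10.7, 19.1, 14.1 and 11.1 FPKM, again without overlap. The rise was 2.53-fold (log2 1.23, SE 0.22, limma adjusted p = 0.00174). The other arterial genes were not called. Gja4 (connexin 37) averaged 13.0 ± 3.46 against 12.6 ± 3.50 FPKM and Dll4, a Notch ligand of arterial and sprouting endothelium, 2.86 ± 1.06 against 3.68 ± 1.24 FPKM, uremic against control.

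These 6 genes were the members whose uremic and control rats did not overlap, 6 of 33 (18.2%), all with the uremic rats higher. Of all genes tested 15.7% did not overlap, 8.38% with uremic rats higher and 7.32% with uremic rats lower. Each was called in all 10 fits that left out 1 rat. Beside them, the sum of 8 leukocyte and macrophage markers ran from 44.8 to 113 FPKM in control and from 356 to 508 FPKM in uremic rats, with 7 of 8 called higher and Cd68, Lyz2 and Cd163 among them. The sum of 8 smooth muscle markers ran from 22260 to 31169 FPKM in control and from 9916 to 20902 FPKM in uremic rats, without overlap, with 5 of 8 called lower (median log2 difference -0.77). The part of leukocytes or of smooth muscle in the rise of Icam1, Vcam1, Selp or Sele was not tested. Mesothelial cells are another possible source of Icam1, and 4 of 6 of their markers were in the table. These summed to between 0.137 and 0.863 FPKM in control and between 0.481 and 1.33 FPKM in uremic rats. The part of mesothelium in the Icam1 rise was not tested either.

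**Figure D4:**
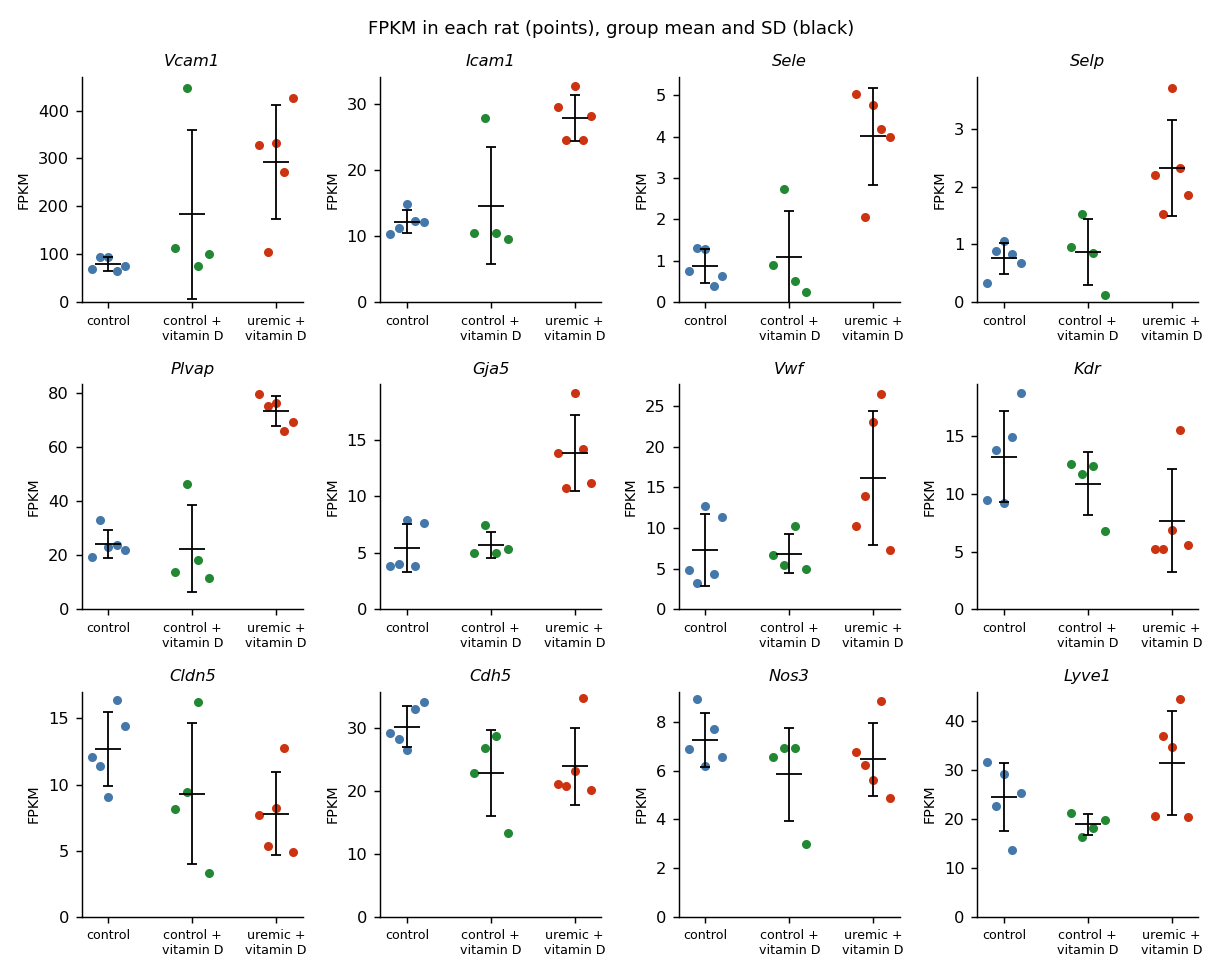
FPKM of 12 members in each rat (points), with the group mean and SD in black; the SD bar of Sele with vitamin D is cut at 0. In the upper 6 panels no uremic rat overlaps a control rat, rat 37 is the high vitamin D point in Vcam1, Icam1 and Plvap, and rat 27 is the high uremic point in Kdr, Cldn5 and Cdh5.

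Genes of endothelial identity and junctions moved little or with wide spread between rats. Of 13 tested, Plvap was called higher and Cldn5 lower, and the median log2 difference over them was -0.03. Cldn5, the claudin of tight junctions (chromosome 11, 89458257 to 89459684), stood at 12.1, 11.4, 9.08, 16.4 and 14.4 FPKM in control rats and at 7.71, 5.38, 8.24, 12.8 and 4.88 FPKM in uremic rats. Of the uremic rats only rat 27 lay within the control range. Its mean fell from 12.7 ± 2.81 to 7.80 ± 3.14 FPKM (log2 -0.68, SE 0.22, limma adjusted p = 0.0468). This call held in 2 of 10 fits without 1 rat (adjusted p up to 0.110) and in 5 of 10 other settings, and ended with limma voom on recovered reads (adjusted p = 0.0891).

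Cdh5 (VE-cadherin; chromosome 19, 1022709 to 1072784) was 29.3, 28.2, 26.5, 33.0 and 34.2 FPKM in control rats and 21.1, 20.8, 23.2, 34.8 and 20.1 FPKM in uremic rats. In 4 uremic rats it lay below all control rats, and in rat 27 above them. With all rats the difference was -0.35 (SE 0.15, limma adjusted p = 0.116), and without rat 27 it was -0.48 (SE 0.11, adjusted p = 0.00809). Pecam1, which is shared with platelets and leukocytes, averaged 111 ± 29.6 against 88.8 ± 12.4 FPKM, uremic against control (log2 0.28, SE 0.18, limma adjusted p = 0.296). Vwf (von Willebrand factor) averaged 16.2 ± 8.24 against 7.30 ± 4.40 FPKM, but ran from 7.30 to 26.5 FPKM in uremic and from 3.24 to 12.7 FPKM in control rats, so that the groups overlapped (log2 1.07, SE 0.38, limma adjusted p = 0.0632). Nos3, the endothelial nitric oxide synthase, ran from 4.88 to 8.85 FPKM in uremic and from 6.19 to 8.95 FPKM in control rats (log2 -0.16, SE 0.16, limma adjusted p = 0.508). Eng averaged 86.7 ± 15.1 against 66.3 ± 9.75 FPKM (limma adjusted p = 0.0759) and Esam, an adhesion molecule of endothelial tight junctions, 18.3 ± 4.64 against 13.2 ± 2.22 FPKM (limma adjusted p = 0.0982). The 5 further genes Emcn, Cd93, Clec14a, Egfl7 and Icam2 differed by between -0.43 and 0.11 on the log2 scale and were not called.

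None of the 5 tested receptor genes was called. The largest difference was that of Kdr, the main signalling receptor for VEGF (chromosome 14, 34557360 to 34618111). Control rats had 9.47, 13.8, 9.23, 14.9 and 18.7 FPKM and uremic rats 5.25, 5.23, 6.84, 15.5 and 5.56 FPKM, so that 4 uremic rats lay below all control rats and rat 27 among the highest. The difference was -0.78 (SE 0.27, limma adjusted p = 0.0582), and -1.04 without rat 27 (SE 0.20, adjusted p = 0.00264). Flt1 (the decoy-like VEGF receptor), Tie1, Tek (the angiopoietin receptor) and Aplnr (the apelin receptor) differed by between -0.18 and 0.20 on the log2 scale. Each of the 10 rats was left out in turn. Without rat 27, 22.6% of all 9859 genes tested were called, beside 21.9% with all rats. Among the members, 12 were then called in place of 7. Those higher were Vcam1, Icam1, Sele, Selp, Plvap, Gja5, Eng and Erg, and those lower were Kdr, Cldn5, Cdh5 and Icam2.

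Endothelial transcription factors were not called either. Erg, the ETS factor that maintains endothelial identity, averaged 37.3 ± 5.27 against 29.8 ± 3.67 FPKM (log2 0.31, SE 0.12, limma adjusted p = 0.091). Sox18 averaged 6.32 ± 2.39 against 3.80 ± 1.82 FPKM (limma adjusted p = 0.142), while its relatives Sox17 (9.13 ± 1.77 against 8.94 ± 1.72 FPKM) and Sox7 (4.19 ± 1.05 against 4.43 ± 0.787 FPKM) were almost level. Klf2 averaged 47.8 ± 14.4 against 46.1 ± 12.1 FPKM.

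Of the lymphatic genes, 3 of 5 with values passed the filter and none was called. Lyve1, a hyaluronan receptor, stood at 31.4 ± 10.6 FPKM in the uremic group against 24.5 ± 6.94 FPKM without treatment (log2 0.33, SE 0.25, limma adjusted p = 0.376). Pdpn averaged 6.58 ± 3.15 against 4.72 ± 1.36 FPKM and Flt4, the receptor for VEGF-C and VEGF-D, 1.02 ± 0.626 against 1.19 ± 0.358 FPKM. Prox1 and Reln stayed under 1 FPKM in every library and were not tested.

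Control rats with vitamin D were then compared with control rats, to ask what vitamin D alone does when the kidneys are intact. None of 31 tested members was called by limma, and 0.134% of all 9693 genes were (13 genes, 0.0103% higher and 0.124% lower; 1782 had an unadjusted p under 0.05). With voom on recovered reads, too, no member was called. The log2 difference was below 0 in 26 of the 31 members and above 0 in 5 (16.1%), against 50.0% of all genes above 0. Its median was -0.25 over the members and 2.03e-04 over all genes. Flt4, 1 of the 26, reached 1 FPKM in 4 control and 0 vitamin D libraries, so it passed the filter through the control group. The count and median are not given without rat 39, the lowest vitamin D rat in 23 of 35 members. The members are also not independent of each other. The sum of the 5 endothelial markers ran from 81.2 to 135 FPKM with vitamin D and from 136 to 181 FPKM without, so the sums narrowly did not overlap. Rat 39 had the lowest sum, beside 129, 135 and 134 FPKM in rats 36, 37 and 38. Pecam1 is the largest part of this sum. Taken singly, Cdh5, Tie1, Tek and Kdr each overlapped between these groups. Beside this, the median log2 difference was 0.95 over 6 white adipocyte markers (1 called higher), 1.29 over 4 brown adipocyte markers (none called) and -0.62 over 6 fibroblast markers (1 called lower); their part in the members' differences was not tested. At an unadjusted p under 0.05 there were 3 members, Pecam1, Cdh5 and Sox17, all lower. Pecam1 (chromosome 10, 94598950 to 94660385) stood at 76.3, 76.4, 88.9, 99.6 and 103 FPKM in control rats and at 74.6, 67.3, 69.1 and 47.6 FPKM in rats 36, 37, 38 and 39. The groups did not overlap, as in 5.72% of all genes tested (2.37% higher and 3.34% lower with vitamin D), and by limma the difference was -0.46 (SE 0.15, adjusted p = 0.15). Cdh5 averaged 22.9 ± 6.87 against 30.2 ± 3.23 FPKM (limma adjusted p = 0.26) and Sox17 5.81 ± 2.80 against 8.94 ± 1.72 FPKM (limma adjusted p = 0.212). Without rat 39 the Cdh5 difference was -0.20 and without rat 37 the Sox17 difference was -0.86 on the log2 scale, with no member called in either fit.

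Rat 37 carried high levels of the adhesion molecules although its kidneys were intact. Vcam1 was 448 FPKM in rat 37 and 112, 75.3 and 100.4 FPKM in rats 36, 38 and 39, so rat 37 exceeded every uremic rat while its group mates lay in or near the control range. Icam1 was 27.9 FPKM in rat 37 and between 9.59 and 10.5 FPKM in the other 3. Plvap was 46.2 FPKM in rat 37 against 11.6 to 18.4 FPKM, Sele 2.72 against 0.236 to 0.895 FPKM, and Selp 1.52 against 0.125 to 0.948 FPKM. Thus in all 5 genes rat 37 lay above every control rat and every other vitamin D rat. Its leukocyte and macrophage markers summed to 110 FPKM, the highest of its group (50.9 to 79.6 FPKM in the other 3) but below every uremic rat, and its smooth muscle markers to 16463 FPKM, the lowest of its group (22501 to 29117 FPKM in the other 3). Their part in its levels was not tested. Without rat 37 the Icam1 difference from control changed from 0.11 to -0.23 on the log2 scale, and that of Vcam1 from 0.82 to 0.26.

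Uremic rats were finally compared with control rats on vitamin D, a contrast in which both groups received vitamin D, although equal doses are not documented. It shares the uremic rats with the first comparison and the vitamin D rats with the second. Of 32 tested members 7 were called higher and none lower (21.9%), against 13.2% of all 9916 genes called, with 7.19% of all genes higher and 6.03% lower. The log2 difference was above 0 in 28 of 32 members (87.5%), against 50.7% of all genes. The called members were Plvap, Gja5, Icam1, Sele, Selp, Pecam1 and Eng. Plvap averaged 73.1 ± 5.54 against 22.5 ± 16.1 FPKM (log2 1.86, SE 0.31, limma adjusted p = 0.00397), and Gja5 13.8 ± 3.34 against 5.70 ± 1.18 FPKM (log2 1.13, SE 0.18, limma adjusted p = 0.00358). Both were called in all 9 fits that left out 1 rat. In Gja5 the vitamin D rats had 4.97, 7.45, 5.02 and 5.37 FPKM, all below the lowest uremic value of 10.7 FPKM.

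The other calls of this contrast were lost in some or most of the fits that left out 1 rat. Calls over all genes varied in the same fits too, between 659 and 1662 beside 1311 with all rats. Icam1 averaged 28.0 ± 3.49 against 14.6 ± 8.88 FPKM (log2 1.02, SE 0.26, limma adjusted p = 0.0268), and 1.36 without rat 37 (SE 0.14, adjusted p = 2.77e-04); it was called in 3 of 9 fits without 1 rat, with an adjusted p of up to 0.0857. Vcam1 was not called (log2 0.92, SE 0.51, limma adjusted p = 0.262); without rat 37 it was, at 1.48 (SE 0.38, adjusted p = 0.0292). Sele differed by 1.35 (SE 0.31, limma adjusted p = 0.017) and was called in 7 of 9 fits without 1 rat. Selp differed by 0.86 (SE 0.26, limma adjusted p = 0.0472) and was called in 2 of 9, and in 5 of 9 other settings (adjusted p up to 0.0917). Both reached 1 FPKM in 1 vitamin D library and in all 5 uremic ones, so they again passed the filter through the uremic group; without a filter the limma adjusted p was 0.0310 for Sele and 0.0592 for Selp. Eng stood at 50.6, 72.5, 44.7 and 47.6 FPKM in the vitamin D rats and at 91.5, 77.3, 105, 66.1 and 94.0 FPKM in the uremic rats, with rat 37 and rat 27 as the overlapping pair (log2 0.69, SE 0.17, limma adjusted p = 0.0246; called in 3 of 9). Pecam1 averaged 111 ± 29.6 against 64.7 ± 11.8 FPKM (log2 0.74, SE 0.21, limma adjusted p = 0.0402; called in 1 of 9, and in 8 of 10 other settings with an adjusted p of up to 0.102), and uremic rat 28, at 69.7 FPKM, lay within the vitamin D range. Erg, at 26.8, 28.3, 28.6 and 29.4 FPKM in vitamin D rats and 30.7 to 44.3 FPKM in uremic rats, did not overlap but missed the threshold (limma adjusted p = 0.0662); non-overlap held in 12.7% of all genes of this contrast (7.06% higher and 5.69% lower in uremic rats) and in 4 of 32 members (12.5%; Plvap, Gja5, Selp and Erg). Without rats 36, 37, 38 and 39 in turn, 2, 8, 2 and 3 members were called, beside 6.69%, 13.1%, 7.19% and 12.2% of all genes tested in the same fits.

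The members were also set against an endothelial level, the geometric mean of Pecam1, Cdh5 and Tie1 in the same library; it measures these transcripts and not a number of cells. This level averaged 34.9 ± 3.73 FPKM in control, 33.7 ± 7.69 FPKM in uremic and 26.8 ± 6.23 FPKM in vitamin D rats, with extremes of 18.2 FPKM in rat 39 and 45.6 FPKM in rat 27. These ratios are descriptions and were not tested. The level differed little between control and uremic groups, so genes without overlap in FPKM could be foreseen to stay apart. Their ratios are no separate support. Relative to the endothelial level, Plvap stood between 0.588 and 1.01 in control and between 1.44 and 2.77 in uremic rats. Icam1 stood between 0.307 and 0.460 in control and between 0.540 and 1.13 in uremic rats, and Vcam1 between 1.61 and 2.91 against 3.21 and 17.1. The Gja5 ratio ran from 0.0954 to 0.243 in control and from 0.310 to 0.539 in uremic rats. Sele and Selp ratios did not overlap between these groups either. Ratios of Vwf did overlap (0.0991 to 0.391 in control and 0.293 to 0.650 in uremic rats). So did those of Cldn5 (0.279 to 0.407 in control and 0.166 to 0.280 in uremic rats). In rat 37 the ratios were 14.1 for Vcam1, 0.881 for Icam1 and 1.46 for Plvap, within the uremic range of each. The Kdr ratio averaged 0.374 ± 0.0887 in control, 0.405 ± 0.0508 in vitamin D and 0.218 ± 0.0718 in uremic rats; rat 27, at 0.340, was the only uremic rat above the lowest control value of 0.284. The Nos3 ratio averaged 0.210 ± 0.0391, 0.214 ± 0.0358 and 0.193 ± 0.0234 in the same order.

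**Figure D5:**
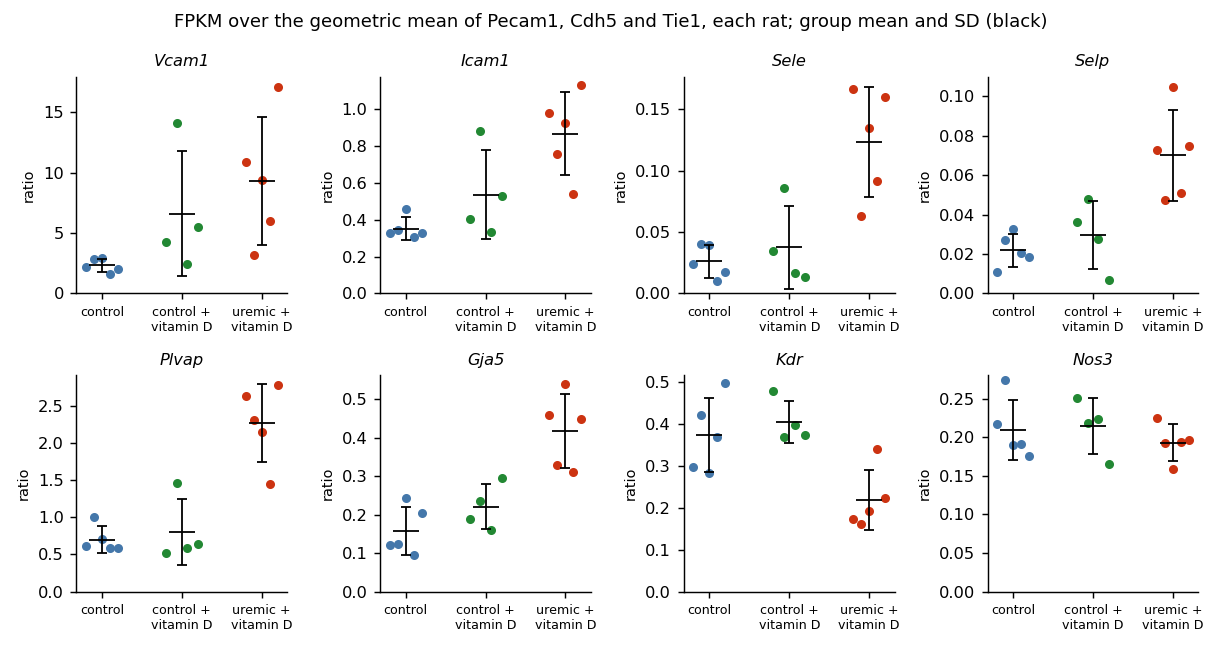
Ratio of 8 members to the geometric mean of Pecam1, Cdh5 and Tie1 in the same library, for each rat, with group mean and SD in black. The ratios of the adhesion molecules, Plvap and Gja5 lie apart between control and uremic rats, as their FPKM values already did. Those of Kdr and Nos3 overlap.

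Ligands and partners of these receptors were followed as lists. Of 21 tested ligands and co-receptors of the VEGF, angiopoietin, apelin, Notch and BMP systems, 7 were higher and 1 lower in uremic against control (38.1% called; list median 0.18 on the log2 scale), beside 21.9% of all genes called, 11.4% higher and 10.5% lower, and a median of 0.00497. Figf (VEGF-D, a ligand of Flt4) rose from 0.912 ± 0.327 to 3.04 ± 0.411 FPKM, Bmp4 from 40.3 ± 9.30 to 80.4 ± 19.0 FPKM, and Angpt4, an angiopoietin, from 0.926 ± 0.229 to 3.38 ± 1.26 FPKM. Tgfbr1, a TGF-beta receptor, rose from 17.8 ± 2.73 to 31.6 ± 6.73 FPKM (limma adjusted p from 4.74e-04 to 0.00474 for these 4).

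Among 19 tested adhesion partners and inducers, 8 were higher and 2 lower in uremic against control (52.6%; list median 0.73). They included Cd44, the hyaluronan receptor that also binds E-selectin, from 8.44 ± 1.63 to 42.1 ± 12.1 FPKM, and Itgam, a chain of the ICAM-1 ligand Mac-1, from 0.217 ± 0.140 to 1.85 ± 0.405 FPKM. Itgam and Figf reached 1 FPKM in 0 and 1 control libraries, so they passed the filter through the uremic group; without a filter their limma adjusted p was 1.00e-04 and 5.53e-04. Il1r1, the interleukin 1 receptor, rose from 7.38 ± 2.02 to 18.4 ± 3.39 FPKM and the monocyte chemokine Ccl2 12.5-fold, to 26.2 ± 15.3 FPKM (limma adjusted p from 1.01e-05 to 5.13e-04 for these 4). Beyond the members, 35 further endothelial-enriched genes gave 8 higher and 2 lower (28.6%; list median 0.14). Ace, the angiotensin converting enzyme, rose from 13.2 ± 2.27 to 42.0 ± 10.5 FPKM, the plasminogen activator Plat from 35.1 ± 6.74 to 82.2 ± 17.9 FPKM, and Tm4sf1, a surface tetraspanin relative, from 30.1 ± 14.5 to 71.0 ± 17.9 FPKM. The transcription factor Ets1 fell from 47.3 ± 9.05 to 28.1 ± 2.93 FPKM (limma adjusted p from 5.31e-05 to 0.00426 for these 4). Many of these genes are also made by smooth muscle or stromal cells.

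Of 11 tested genes of a further lymphatic list, 3 were higher and 2 lower in uremic against control (45.5%; list median -0.04), and none is specific to lymphatic vessels. Beside Figf these were Thy1, also a fibroblast marker, from 10.4 ± 2.86 to 40.7 ± 12.9 FPKM, the VEGF-C co-receptor Nrp2 from 9.66 ± 0.888 to 16.0 ± 4.39 FPKM, and the guidance factor Sema3d, which fell from 17.2 ± 3.40 to 9.77 ± 2.30 FPKM (limma adjusted p from 8.13e-05 to 0.0175 for these 4). In control with vitamin D against control none of the 4 lists had a called gene. In uremic against control with vitamin D the 4 lists had 5 higher and 1 lower, 9 and 0, 7 and 3, and 2 and 1 called, in the order above, which is 30.0%, 47.4%, 29.4% and 27.3% of those tested, beside 13.2% of all genes. These lists are described by their counts and were not tested against other genes.

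Of the 7 members called in uremic against control, 6 also had a q under 0.05 in the authors' deposited table. Selp had q = 1.0 there, a value that can also stand for a gene not tested. That table further lists Vwf and Kdr at q = 6.53e-04 and Sox18 at q = 0.0433. The value 6.53e-04 is the smallest q of any member, shared by 7 of them in this comparison, so it does not rank them. For vitamin D alone, the authors' deposited table has q = 6.53e-04 for Vcam1, q = 0.0296 for Aplnr and q = 0.0413 for Sox17, none of which was called here. For uremic against control with vitamin D, the authors' deposited table has 10 members with q under 0.05, all higher in uremic rats. Of these, 6 were called here, and Vwf, Sox17, Sox18 and Lyve1 were not. Selp was called here only, and its deposited q can again stand for a gene not tested. The mean of Vcam1 with vitamin D alone was 184 ± 177 FPKM, with 448 FPKM in rat 37 as above.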

How the data were processed

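Polyadenylated RNA of 14 rat aortas was sequenced. The authors' software, per the submitters' processing notes, was cutadapt (version 1.3), TopHat2 (version 2.0.10), Cufflinks (version 2.1.1) and Cuffdiff, on build rn5; settings are not given in the sources used here. The deposited table names no unit in its header; FPKM, the output of the authors' Cufflinks tools, was taken as the unit. Its q-values (adjusted p-values deposited by the authors) were used for comparison only. Group means in the table matched the library columns. FPKM steps gave whole reads (tolerance 0.1 read) for 10940 of the 11294 genes that exceeded 0 in 8 or more libraries (96.9%; 0.3% after shuffling libraries).

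limma 3.58.1 was run in R 4.3.3, and tables and figures were made in Python 3.11.15 (numpy version 2.4.6, pandas version 2.3.3, matplotlib version 3.10.9). Genes reaching 1 FPKM in 4 or more libraries of a comparison were fitted on log2(FPKM + 1) with limma (trended eBayes, 2-sided), adjusted by Benjamini-Hochberg over all genes and called under 0.05. The fit was also run on simulated data with normal spread and its own fitted variances. Such data meet the assumptions of the fit and cannot test them. Members and lists were chosen with earlier results of these data known. Values in every rat are given for members called in any comparison or without overlap between uremic and control; other lists name up to 4 called genes with the smallest p. Alternatives were other pseudocounts, filters and scalings, a fit of all 3 groups, a robust fit, voom on recovered reads and omission of each rat. P-values set a difference between groups against the spread between rats, and limma draws each gene's variance towards that of other genes.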

Additional observations from a re-analysis of the deposited data

Results flagged for a closer look

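In 9 of 105 groups tested (35 members in 3 groups of rats), 1 rat was set apart from the rest of its group by Dixon's test. For normal values, chance marks about 1 group in 20. The members share the same rats and are not independent, so the 9 cannot be read as an excess over chance. In vitamin D rat 37, Vcam1 (448 FPKM, next 112), Icam1 (27.9 FPKM, next 10.5) and Gja5 (7.45 FPKM, next 5.37) were far above the other 3 rats. In vitamin D rat 39, Nos3 (3.00 FPKM, next 6.55) and Kdr (6.81 FPKM, next 11.7) were far below them. In uremic rat 27, Cdh5 (34.8 FPKM, next 23.2) and Kdr (15.5 FPKM, next 6.84) were far above the other 4. In control rats, Esam was high in rat 44 (17.1 FPKM, next 13.0) and Gja4 in rat 41 (18.7 FPKM, next 12.0). Rats 27 and 37 were also highest of their group in a larger share of the members than of all genes. Rat 44 was too, by less (28.6% against 21.3%). Rats 39 and 41 were lowest of their group in a larger share, as was rat 28, which has no value listed here. The high Gja4 of rat 41 thus goes against its position in the members, of which it was highest in 8.57% against 19.9% of all genes.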

How the results depend on the processing

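In uremic against control, Vcam1, Icam1, Plvap and Gja5 were called higher under all 10 other settings and all 10 omissions of a rat; Sele and Selp were too, except that a minimum of 5 FPKM removed them from the test. Member calls ranged from 6 to 12 over the omissions of a rat (12 without rat 27), from 2 to 8 in uremic against control with vitamin D, and stayed at 0 in control with vitamin D against control. Cldn5 lost its call with a pseudocount of 0.01, without a filter, in the fit of all 3 groups, in voom and, with Mgp left out of the total (chosen after seeing the data), in scaling to the same total (adjusted p from 0.0510 to 0.125). With that scaling Eng, Erg and Esam were called higher; the fit of all 3 groups called Vwf higher and Kdr lower. In uremic against control with vitamin D, Selp lost its call with pseudocounts of 0.1 and 0.01, without a filter and in scaling to the same total (adjusted p from 0.0592 to 0.0917), and Pecam1 in the last 2 of these (0.0592 and 0.102). Scaling to the same total changed the genes called between uremic and control from 1131 higher and 1046 lower to 835 and 1584, with a median over all genes of -0.10, and 1472 and 723 (median 0.09) without Mgp; the members called were 6 and 1, and 9 and 0. Calls over all genes ranged from 1684 to 2224, from 0 to 393 and from 659 to 1662 over the omissions in the 3 comparisons; for vitamin D alone they were 3 without a filter and 8 in voom. No called difference changed sign; among those not called, the log2 difference of 8, 9 and 9 members in the 3 comparisons did so when 1 rat was left out. In uremic against control the range over the omissions was -0.28 to 0.013 for Cd93, -0.15 to 0.088 for Egfl7, -0.016 to 0.21 for Emcn, -0.0075 to 0.27 for Flt1, -0.081 to 0.19 for Gja4, -0.10 to 0.15 for Klf2, -0.048 to 0.10 for Sox17 and -0.17 to 0.018 for Sox7. In vitamin D alone the range over the omissions was -0.38 to 0.14 for Egfl7, -0.059 to 0.26 for Esam, -0.31 to 0.10 for Flt1, -0.018 to 0.23 for Gja5, -0.23 to 0.25 for Icam1, -0.38 to 0.13 for Pdpn, -0.26 to 0.095 for Sox18, -0.28 to 0.16 for Tek and -0.17 to 0.26 for Vwf. In uremic against control with vitamin D the range over the omissions was -0.10 to 0.11 for Cd93, -0.14 to 0.21 for Cdh5, -0.49 to 0.17 for Cldn5, -0.11 to 0.031 for Clec14a, -0.058 to 0.21 for Dll4, -0.17 to 0.36 for Egfl7, -0.23 to 0.12 for Icam2, -0.085 to 0.24 for Nos3 and -0.050 to 0.13 for Sox7. With scaling to the same total the changed sign gave -0.0031 for Emcn, -0.074 for Sox17, -0.069 for Klf2 and -0.056 for Gja4 in uremic against control, and -0.048 for Cdh5, -0.10 for Cd93, -0.019 for Egfl7 and -0.074 for Sox7 in uremic against control with vitamin D. Without Mgp in the total the changed sign gave 0.065 for Egfl7 and 0.0046 for Sox7 in uremic against control, and 0.022 for Clec14a and 0.0016 for Icam2 in uremic against control with vitamin D. In voom the changed sign gave 0.0011 for Egfl7 in uremic against control, and 0.0080 for Icam2 in uremic against control with vitamin D. With pseudocounts of 0.1 and 0.01 the changed sign gave 0.0066 for Sox18 and 0.012 for Sox18 in vitamin D alone. No paired analysis was possible because the groups share no rat numbers. The low read numbers of Sele, Selp, Prox1 and Flt4 limit what can be said of them; the cause of the changes above was not tested.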
